A study of Mus musculus with 8 samples.

Results

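The genes described here encode the machinery of G2 phase and mitosis: B-type and A-type cyclins with Cdk1, the mitotic kinases, the spindle checkpoint, the centromere and kinetochore, the kinesins and the spindle midzone, with Mki67 and Top2a as markers of dividing cells. The set was a named list of 35 symbols, looked up in a table of 23846 entries, and all 35 were found, each in a single entry. All 35 had a mean of at least 1 FPKM over the libraries and entered the test. FPKM counts fragments for each kilobase of a gene and corrects for how many reads the library mapped. The table came from RNA sequencing of cells sorted from mouse bone marrow, with 4 libraries from wild-type mice and 4 from TOX knockout mice. TOX is a nuclear HMG-box protein of developing lymphocytes. The sorting gate, the strain, the age, the way the knockout was made and the number of animals were not given in the sources used here, so p-values measure only the spread between these samples, which may be technical. Libraries are called by the number in their column name, 10, 11, 16 and 29 in each group, and values are listed in that order.

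Mitotic genes are transcribed late in the cell cycle, and their messages are abundant in dividing cells and scarce in resting cells. Cyclins A2, B1 and B2 activate Cdk1, which drives entry into mitosis, while Polo-like and Aurora kinases build the spindle and the spindle checkpoint holds the anaphase-promoting complex in check until kinetochores are attached. Much of this programme is controlled through a promoter element called the cell cycle genes homology region (CHR), which recruits the DREAM and MuvB complexes with B-MYB and FOXM1, often beside CCAAT boxes bound by NF-Y. In bone marrow these genes are carried mainly by expanding progenitors and precursors of the lymphoid, granulocytic and erythroid lineages.

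Promoters are shown for 6 of the genes because they span the range of element content in the set. They run from 150 bases before to 50 bases after the RefSeq gene start, 5′ to 3′ on the gene's strand, with coordinates of the mouse build GRCm38.p6. Capitals mark the CHR-type letters TTTGAA or TTCAAA and the NF-Y-type letters CCAAT or ATTGG, searched on both strands. Ccnb2 lies at chr9:70421505-70421704 (minus strand), Cdk1 at chr10:69352863-69353062 (minus), Ube2c at chr2:164769779-164769978 (plus), Plk1 at chr7:122159285-122159484 (plus), Ccnb1 at chr13:100786437-100786636 (minus) and Birc5 at chr11:117849087-117849286 (plus).
Ccnb2: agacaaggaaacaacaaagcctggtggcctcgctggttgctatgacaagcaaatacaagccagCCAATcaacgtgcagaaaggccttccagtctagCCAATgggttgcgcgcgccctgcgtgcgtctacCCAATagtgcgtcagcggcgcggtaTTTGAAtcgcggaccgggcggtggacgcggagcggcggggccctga
Cdk1: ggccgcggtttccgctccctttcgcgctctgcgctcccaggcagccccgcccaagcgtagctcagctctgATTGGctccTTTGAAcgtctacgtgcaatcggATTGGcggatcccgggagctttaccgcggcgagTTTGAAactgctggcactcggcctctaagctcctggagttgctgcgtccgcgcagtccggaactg
Ube2c: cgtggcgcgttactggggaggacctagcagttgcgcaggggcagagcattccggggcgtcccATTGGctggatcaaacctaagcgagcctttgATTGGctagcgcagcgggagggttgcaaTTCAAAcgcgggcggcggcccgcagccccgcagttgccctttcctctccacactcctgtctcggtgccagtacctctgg
Plk1: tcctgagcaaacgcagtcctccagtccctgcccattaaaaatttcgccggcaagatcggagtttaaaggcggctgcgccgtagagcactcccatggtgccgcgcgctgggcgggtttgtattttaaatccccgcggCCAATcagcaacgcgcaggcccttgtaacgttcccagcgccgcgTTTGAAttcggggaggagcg
Ccnb1: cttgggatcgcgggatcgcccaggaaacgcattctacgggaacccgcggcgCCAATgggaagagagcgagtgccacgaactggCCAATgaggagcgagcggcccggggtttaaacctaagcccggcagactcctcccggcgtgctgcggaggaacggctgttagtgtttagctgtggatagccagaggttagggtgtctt
Birc5: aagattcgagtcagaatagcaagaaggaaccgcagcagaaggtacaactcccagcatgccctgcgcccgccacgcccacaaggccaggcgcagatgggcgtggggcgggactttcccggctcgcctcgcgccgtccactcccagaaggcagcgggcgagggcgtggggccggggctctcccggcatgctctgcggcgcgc

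In the part shown, Ccnb2 carries CCAAT-type letters at a regular spacing upstream of a CHR-type element at the gene start. There Ube2c shows the same order of elements. In Cdk1 the elements shown alternate, with a CHR-type match between the CCAAT-type ones and another nearer the start. Upstream of the part shown, Ccnb2 has another CHR-type match, at -167 from the start, and Ube2c and Cdk1 have further CCAAT-type matches. Plk1 holds its CHR-type letters downstream of the start, Ccnb1 has CCAAT-type letters only, and the window of Birc5 has neither. Promoter windows of 250 bases before to 50 after the start were found for 29 of the 35 genes. The start here is that of the RefSeq transcript each window was set on. It was the gene start in 19 of 30 windows (Prc1 had 2), and the window of Kif2c lay inside the gene. The windows of Ccna2, Foxm1, Aurkb, Spc24, Kif20a and Tpx2 were not used here. CHR-type letters were present in 21 of the 29 (72.4%), against 14.5% of 7884 tested genes with a window. CCAAT-type letters were present in 79.3%, against 43.7%. A CHR-type match within 50 bases of the start, a distance chosen after the positions were seen, was found in 19 of the 29 (65.5%), against 3.87% of the tested genes. In 1 window, that of Cdca8, the letters of both kinds overlapped. A match of letters is a description of the window and not evidence of binding.

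**Figure D1:**
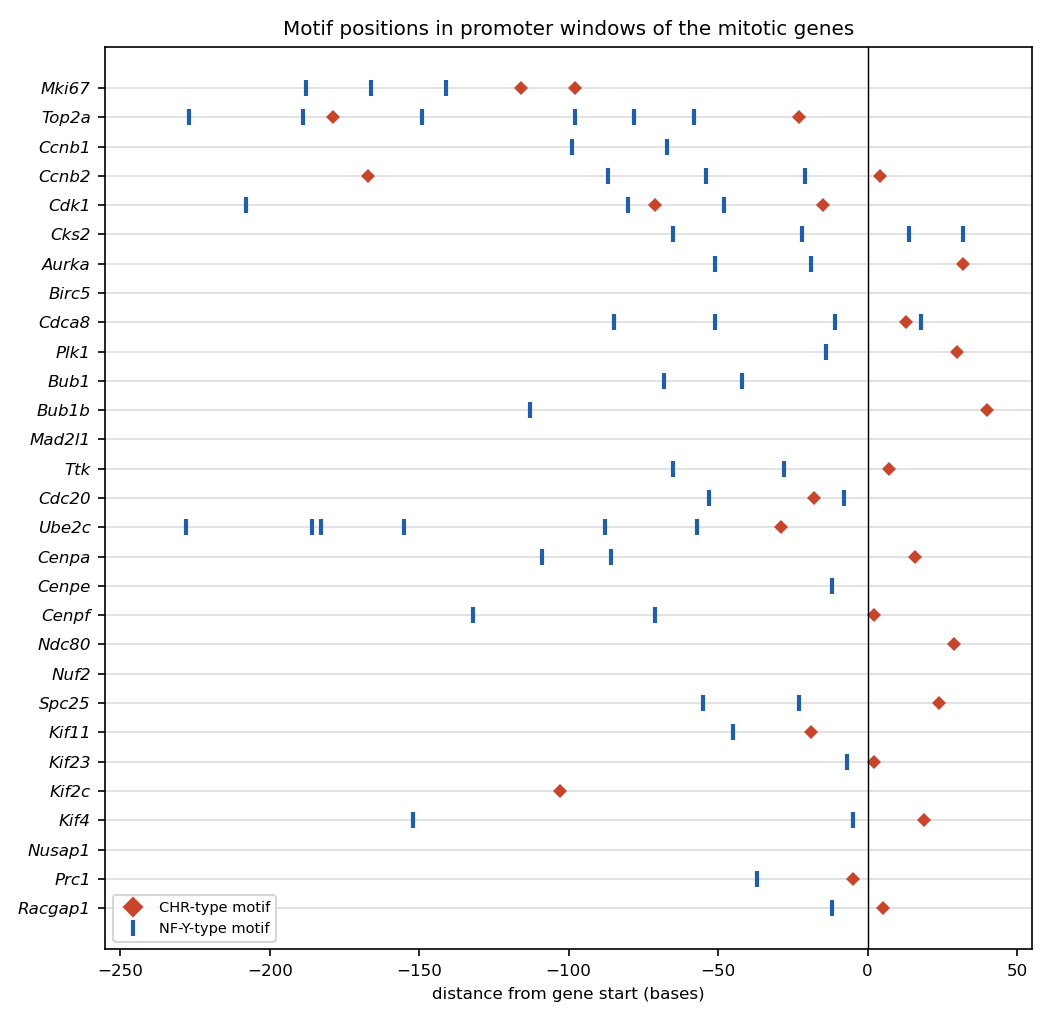
Positions of CHR-type letters (diamonds) and NF-Y-type letters (bars) in the promoter windows of the 29 mitotic genes that had one. The horizontal axis gives the distance in bases from the transcript start each window was set on, which was the gene start in 19 of 30 windows. CHR-type matches gather near the start, within 50 bases of it in 19 of the 29 genes, with CCAAT-type matches mostly upstream.

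Genes with and without CHR-type letters within 50 bases of the start had close median differences between genotypes. The 19 genes with them had a median of 0.37 in log2 fold change. The 10 with a window but none that near had 0.44, and of these Mki67 and Kif2c had such letters further upstream. After the scaling described below these medians were 0.89 and 0.99. The share of windows with CHR-type letters was 57.4% among 68 other mitotic genes, 13.6% among 44 DNA replication genes and 23.3% among 30 genes of G1 and cell cycle exit.

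No mitotic gene passed the test between TOX knockout and wild type, although most were higher in the knockout. With values as deposited, 32 of 35 had a log2 fold change above 0, where 21.5% of all tested genes did. Their median log2 fold change was 0.41, against -0.52 over all 10693 tested genes. The test was limma on log2(FPKM + 1) with Benjamini-Hochberg adjustment over all tested genes, and 0 of 35 rose or fell at an adjusted p under 0.05, where 1.92% of all genes were called, 0.196% rising and 1.72% falling. At an unadjusted p under 0.05, 2 of 35, Mki67 and Birc5, were higher, where 3.11% of all genes were, and 0 were lower, where 17.5% were. The adjusted p of the 35 ran from 0.179 to 0.965, and the standard errors from 0.37 to 0.62 on the log2 scale. Fold changes here are on the log2(FPKM + 1) scale, which understates those of low genes.

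FPKM values depend on how much of a library is taken by a few abundant messages, so the comparison was repeated after dividing each library by its median ratio to the geometric mean of all libraries. This moved the median of all tested genes from -0.52 to -0.03. The divisors were 1.27, 1.30, 1.25 and 1.38 in wild type and 1.21, 1.34, 0.443 and 0.722 in knockout. Scaling thus raised the values of knockout libraries 16 and 29 and lowered those of all other libraries. After this scaling 34 of 35 mitotic genes had a log2 fold change above 0, where 48.4% of all genes did, and their median was 0.98. Again 0 of 35 passed at an adjusted p under 0.05, where 1.97% of 10541 genes were called, 0.873% rising and 1.10% falling. At an unadjusted p under 0.05, 22 of 35 were higher, where 9.92% of all genes were, and 0 were lower, where 9.11% were. Such counts are not those of independent genes. After scaling, wild-type library 16 was the highest of its group for 30 of the 35 and wild-type library 11 the lowest for 26. The split of calls over all genes was 21 higher and 184 lower as deposited, and 92 higher and 116 lower after scaling. The distance between the median of the mitotic genes and that of all genes was 0.93 as deposited and 1.00 after scaling.

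**Figure D2:**
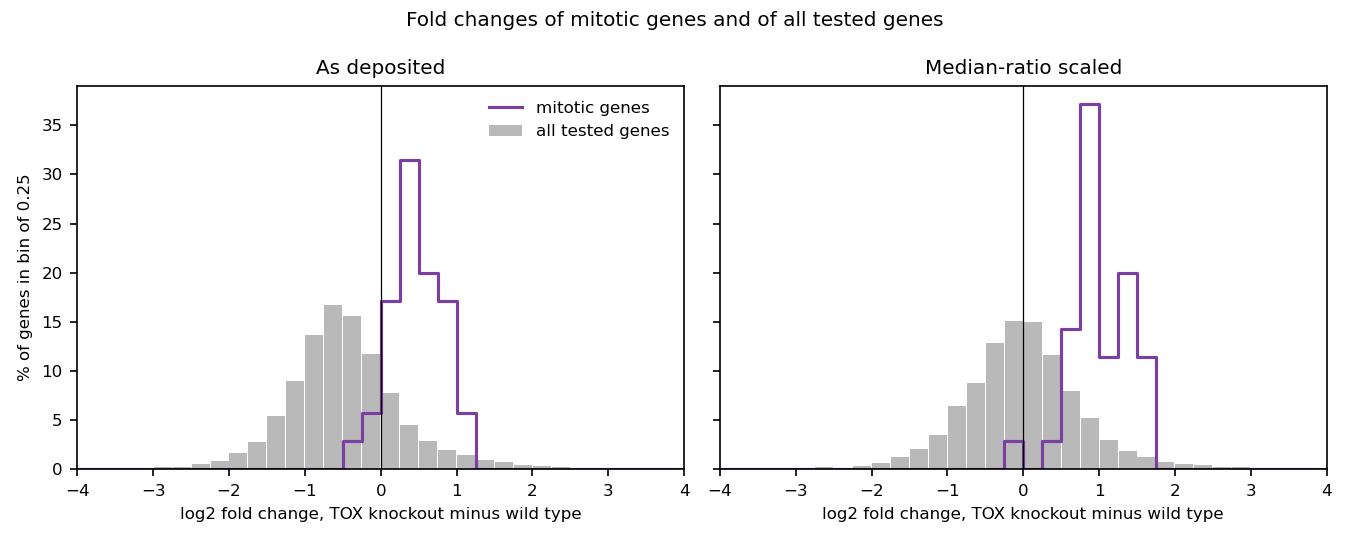
Share of genes, in percent, in bins of the log2 fold change (TOX knockout minus wild type) for the 35 mitotic genes (purple line) and all tested genes (grey bars), as deposited on the left and after median-ratio scaling on the right. The bulk of all genes moves from a median of -0.52 to -0.03 between the panels, and the mitotic genes from 0.41 to 0.98.

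The result after scaling depended on knockout library 11. Without it, 6 of 35 rose (Mki67, Top2a, Ccna2, Birc5, Nuf2 and Racgap1), where 2.70% of all genes rose, and Mki67 had a log2 fold change of 1.94 and an adjusted p of 0.0232. Knockout library 11 was the lowest knockout library for 30 of 35 genes after scaling. As deposited, leaving out any single library called 0 of 35. With limma's library weights, Mki67 rose as deposited (1.18, adjusted p = 0.0462), where 2.53% of all genes rose.

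**Figure D3:**
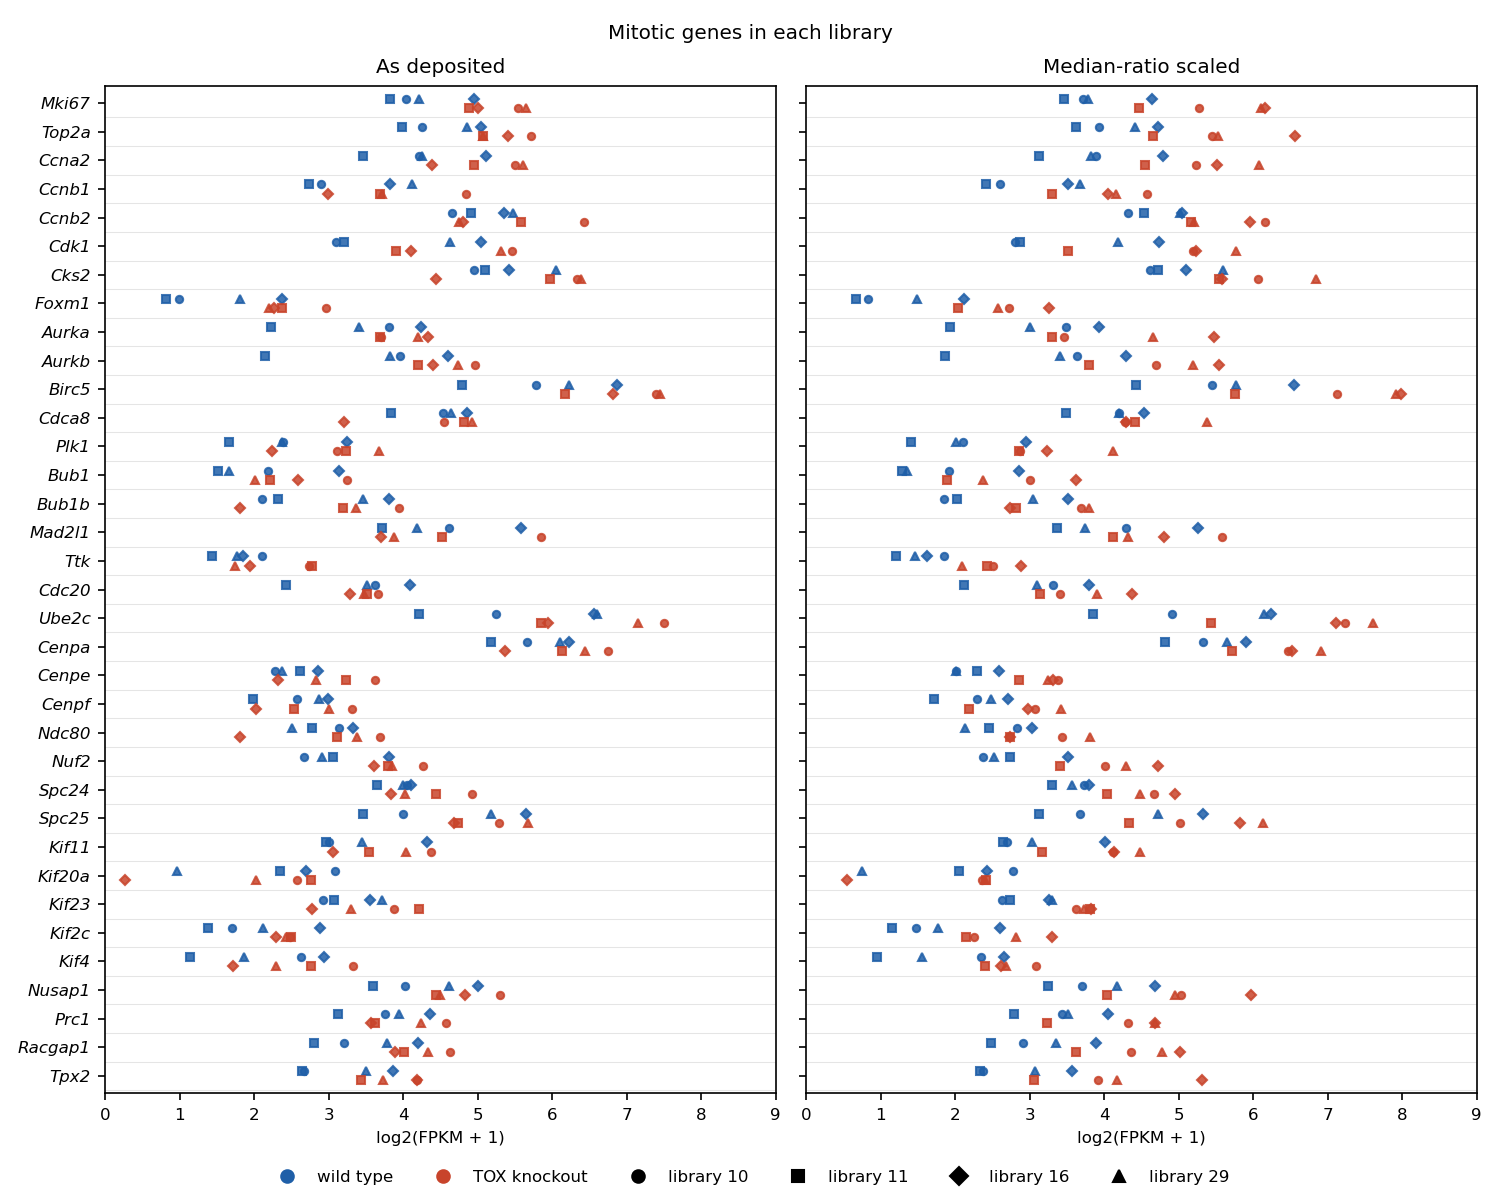
Level of each of the 35 mitotic genes in each of the 8 libraries as log2(FPKM + 1), as deposited on the left and after median-ratio scaling of FPKM on the right, with wild type in blue, TOX knockout in red and a symbol for each library number. Groups overlap for all genes but Top2a on the left and for all but Ccnb2, Ttk, Cenpe, Spc24 and Kif23 on the right.

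Mki67, which encodes the proliferation antigen Ki-67 that coats mitotic chromosomes (chromosome 7, 135689788 to 135716379, mm10), stood at 15.4, 13.1, 30.02 and 17.6 FPKM in wild type and at 45.5, 28.4, 31.2 and 49.2 in TOX knockout. Knockout library 11 lay below the highest wild-type library, and the other knockout libraries lay above all wild-type ones. The means were 19.0 ± 7.57 and 38.6 ± 10.3 FPKM (SD, n = 4 each). Its log2 fold change was 1.01 (SE 0.38, adjusted p = 0.179), and 1.60 after scaling (SE 0.41, adjusted p = 0.0835), the lowest adjusted p of the set.

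Top2a encodes topoisomerase II alpha, which untangles sister chromatids (chromosome 11, 98992947 to 99024189, mm10). It stood at 18.0, 14.8, 31.8 and 28.1 FPKM in wild type and at 51.6, 32.5, 41.6 and 32.5 in knockout. Its groups did not overlap as deposited, the only gene of the 35 for which this held, where 1.09% of all genes had a knockout group wholly above wild type. After scaling its groups did overlap. The log2 fold change was 0.78 (SE 0.37, adjusted p = 0.247) and 1.38 after scaling (adjusted p = 0.115).

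The cyclins, Cdk1 and their regulators had a median log2 fold change of 0.56 over 6 genes, and 1.14 after scaling. Ccnb1 (cyclin B1) stood at 6.45, 5.64, 13.1 and 16.3 FPKM in wild type and at 27.6, 11.8, 6.91 and 12.1 in knockout, so that only knockout library 10 lay above all wild-type libraries. Ccnb2 (cyclin B2) stood at 24.2, 28.9, 40.04 and 43.3 against 85.3, 46.8, 27.0 and 25.8. Knockout libraries 10 and 11 exceeded every wild-type library for Ccnb2, while 16 and 29 lay among the lower wild-type values. After scaling the groups of Ccnb2 did not overlap, and its log2 fold change was 0.89 (SE 0.30, adjusted p = 0.162), against 0.29 as deposited.

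Cdk1, the kinase that cyclins A2 and B activate, stood at 7.58, 8.21, 32.0 and 23.6 FPKM in wild type and at 43.1, 14.0, 16.1 and 38.7 in knockout. Wild type itself split into a low pair, libraries 10 and 11, and a high pair, 16 and 29, and the standard error was 0.54 for a log2 fold change of 0.70 (adjusted p = 0.422). Foxm1, the transcription factor that activates G2 and mitotic genes, stood at 0.989, 0.758, 4.20 and 2.50 in wild type and at 6.81, 4.18, 3.80 and 3.58 in knockout. Wild-type library 16 overlapped the knockout group. Its log2 fold change was 0.95 (SE 0.45, adjusted p = 0.251), and 1.37 after scaling (adjusted p = 0.133). Ccna2 (cyclin A2) and Cks2, a subunit that binds Cdk1, had log2 fold changes of 0.85 and 0.40, and 1.44 and 1.00 after scaling.

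Among mitotic kinases and the chromosomal passenger complex, which corrects faulty attachments and later acts at the midzone, the median was 0.65 over 5 genes and 1.15 after scaling. Birc5 (survivin, a passenger subunit; chromosome 11, 117849237 to 117855743, mm10) was the most abundant of the 35, at 54.0, 26.6, 116 and 73.6 FPKM in wild type and 168, 71.2, 112 and 174 in knockout. Knockout libraries 10 and 29 lay above the wild-type range, and 11 and 16 inside it. The means were 67.5 ± 37.6 and 131 ± 48.7 FPKM (SD, n = 4 each). The log2 fold change was 1.05 (SE 0.47, adjusted p = 0.230) and 1.65 after scaling (SE 0.54, adjusted p = 0.153), in each case the largest of the set.

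Aurkb (Aurora B, the passenger kinase) stood at 14.5, 3.42, 23.2 and 13.2 FPKM in wild type and at 30.3, 17.3, 20.1 and 25.6 in knockout. Library 11 was the lowest of its group in both genotypes. The log2 fold change was 0.94 (SE 0.49, adjusted p = 0.283). Aurka (Aurora A, which matures the centrosomes) stood at 13.0, 3.65, 17.9 and 9.64 against 12.1, 11.9, 19.2 and 17.4 (log2 fold change 0.56, SE 0.46, adjusted p = 0.442). Plk1, the Polo-like kinase of mitotic entry, stood at 4.21, 2.16, 8.48 and 4.19 against 7.67, 8.39, 3.70 and 11.8. Its knockout library 16 lay below the wild-type libraries other than 11. Cdca8 (borealin), the remaining passenger subunit, had equal means of 21.8 FPKM and log2 fold changes of -0.09 as deposited and 0.48 after scaling.

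The spindle checkpoint genes had the lowest median of the role groups, 0.27 over 4 genes and 0.76 after scaling. Bub1, a checkpoint kinase at kinetochores, stood at 3.55, 1.86, 7.81 and 2.16 FPKM in wild type and at 8.501, 3.62, 5.002 and 3.02 in knockout. Mad2l1 (MAD2, which holds back CDC20) stood at 23.6, 12.2, 46.7 and 17.1 against 56.6, 21.9, 12.0 and 13.6. The groups of both genes overlapped widely, and for Mad2l1 the log2 fold change was -0.04 as deposited (SE 0.53, adjusted p = 0.965) and 0.54 after scaling. Bub1b (BUBR1) had 0.15, and Ttk (the kinase MPS1) 0.51, with groups that did not overlap after scaling (0.94, adjusted p = 0.162).

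Of the anaphase-promoting complex, Cdc20, its mitotic activator, stood at 11.3, 4.36, 16.1 and 10.4 FPKM in wild type and at 11.6, 10.5, 8.74 and 10.1 in knockout. The knockout values lay in a narrow band inside the wild-type range (log2 fold change 0.07, SE 0.41, adjusted p = 0.926). Ube2c, the ubiquitin-conjugating enzyme of the same complex, stood at 37.1, 17.5, 93.7 and 96.4 in wild type and at 181, 56.5, 60.6 and 141 in knockout. Knockout libraries 10 and 29 exceeded the wild-type range. Its log2 fold change was 0.95 (SE 0.57, adjusted p = 0.331), and 1.56 after scaling (SE 0.59, adjusted p = 0.196).

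The centromere and kinetochore genes had a median of 0.37 over 7 genes and 0.98 after scaling. Cenpa, the histone variant that marks centromeres, stood at 49.7, 35.4, 73.7 and 67.8 FPKM in wild type and at 106, 69.1, 40.1 and 85.8 in knockout. Cenpe, a kinetochore motor, stood at 3.84, 5.09, 6.25 and 4.16 against 11.3, 8.41, 3.97 and 6.13. For both genes knockout library 16 lay within the wild-type range, and the groups of Cenpe separated once scaled (0.98, SE 0.29, adjusted p = 0.123). Ndc80, the outer kinetochore subunit that binds microtubules, stood at 7.78, 5.82, 9.02 and 4.66 against 11.9, 7.61, 2.52 and 9.37 (log2 fold change 0.06, SE 0.46, adjusted p = 0.938). Its partners in the same complex, Nuf2, Spc24 and Spc25, had 0.77, 0.36 and 0.52, and 1.32, 0.94 and 1.11 after scaling. Cenpf had 0.11, and 0.62 after scaling.

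Kinesins had a median of 0.32 over 5 genes and 0.82 after scaling. Kif11, the motor that pushes spindle poles apart, stood at 6.99, 6.79, 19.0 and 9.91 FPKM in wild type and at 19.8, 10.7, 7.33 and 15.4 in knockout. Kif23, a motor of the central spindle, stood at 6.56, 7.41, 10.7 and 12.1 against 13.7, 17.6, 5.82 and 8.81. Knockout libraries 16 and 29 lay in or below the wild-type range for Kif23 as deposited, and its groups separated after scaling (0.77, SE 0.27, adjusted p = 0.170). Kif2c and Kif4 had 0.40 and 0.38, and 0.88 and 0.82 after scaling. Kif20a, a late mitotic motor, was the gene below 0 in both scalings, at -0.36 (SE 0.62) and -0.07 (SE 0.56), and its lowest library was knockout 16 with 0.202 FPKM.

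The spindle and midzone proteins had a median of 0.59 over 4 genes and 1.16 after scaling. Tpx2, which activates Aurora A on the spindle, stood at 5.34, 5.26, 13.6 and 10.3 FPKM in wild type and at 17.1, 9.82, 17.2 and 12.3 in knockout. Knockout libraries 10 and 16 lay above wild type, and the log2 fold change was 0.71 (SE 0.41, adjusted p = 0.317). Racgap1, a central spindle subunit, had 0.72, the microtubule binder Nusap1 0.46 and the midzone bundler Prc1 0.21, and after scaling 1.29, 1.05 and 0.78.

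**Figure D4:**
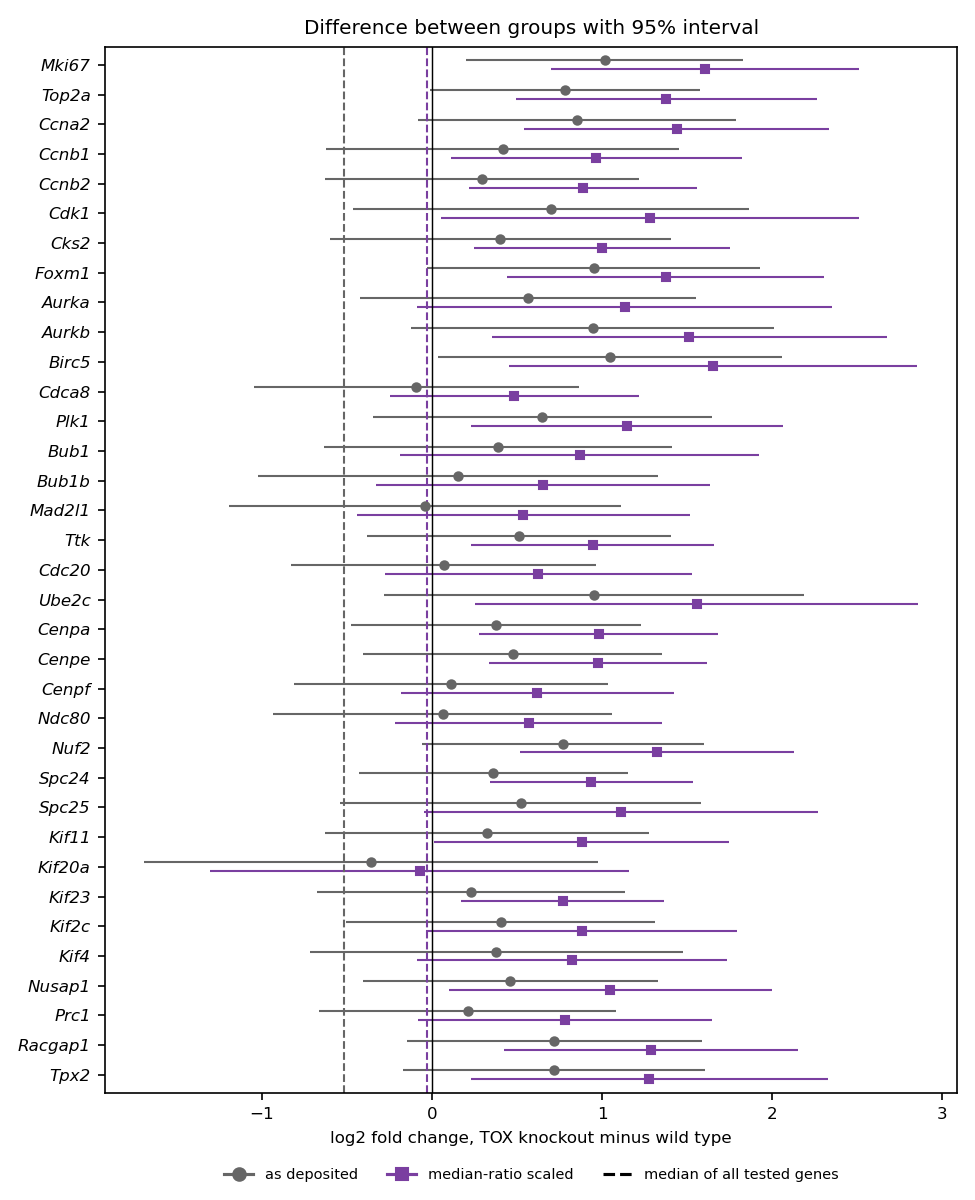
Log2 fold change of each mitotic gene (TOX knockout minus wild type) with its 95% interval from limma, as deposited (grey circles) and after median-ratio scaling (purple squares), where dashed lines give the median of all tested genes, -0.52 and -0.03. The interval lay above 0 for 2 genes as deposited and for 22 after scaling, and 0 of 35 passed the adjusted test in either.

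After scaling 5 of 35 genes had a knockout group wholly above wild type, where 5.33% of all genes did. Wild-type library 16 set the upper edge of its group for 28 of 35 genes as deposited and 30 after scaling, and wild-type library 11 the lower edge for 26 in both. Without wild-type library 16, 8 genes did not overlap as deposited, where 2.61% of all genes had knockout wholly higher, and 18 after scaling, where 8.73% did. The median log2 fold change as deposited was then 0.64. Of the knockout libraries, 10 was the highest for 22 genes as deposited and 16 the lowest for 22, but after scaling 16 was the highest for 16 genes.

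The genes were summed to give the weight of the mitotic programme in each library. The 35 genes held 482, 335, 903 and 707 FPKM together in the wild-type libraries, and 1279, 722, 610 and 1023 in the knockout ones. These groups overlapped, through wild-type libraries 16 and 29. As a share of the sum over all genes without haemoglobin, they made up 0.169%, 0.110%, 0.290% and 0.217% in wild type and 0.350%, 0.225%, 0.370% and 0.390% in knockout. Here only knockout library 11 lay inside the wild-type range. In a bulk sample, more dividing cells and more of these messages per cell cannot be told apart.

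The most abundant genes by mean FPKM over the 8 libraries were Birc5 (99.4), Ube2c (85.4), Cenpa (66.0), Cks2 (51.8) and Ccnb2 (40.2), and the least abundant were Kif2c (3.87), Foxm1 (3.35) and Ttk (3.34). FPKM is per kilobase, which corrects for gene length, but other differences in coverage between genes were not checked. The order of levels is a description only. Within a group the values were widely spread. The coefficient of variation had a median of 47.2% over the 35 genes in wild type and 40.9% in knockout. Neighbours in the order of levels were not tested against each other.

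The barcode numbers in the column names form 2 consecutive series, 17 to 20 and 40 to 43, each with 2 libraries per group. They are called barcode runs here, and the labels do not say whether they were prepared or sequenced apart. The median was above 0 in both. In the run of libraries 10 and 16 the median log2 fold change was 0.25, with 25 of 35 above 0 (22.4% of all genes were), against a median of -0.63 over all genes. In the run of libraries 11 and 29 it was 0.64, with 34 of 35 above 0 (27.7%), against -0.38. After scaling, the medians were 0.93 and 0.92. Without knockout libraries 16 and 29 all 35 genes were above 0 as deposited, where 47.4% of all genes were, with a median of 0.73 against -0.03. In that fit 0 of 35 passed, where 2.64% of all genes were called, and 11 were higher at an unadjusted p under 0.05, where 7.32% of all genes were. After scaling, still without knockout libraries 16 and 29, the median was 0.77, against 0.0030 over all genes.

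Genes of neighbouring programmes were tested in the same fit. The 84 other mitotic genes tested from a list of 88 had medians of 0.16 as deposited and 0.67 after scaling. As deposited 0 passed, where 1.92% of all genes were called. After scaling 1 rose, where 0.873% of all genes did. That gene was Smc4, a condensin subunit, at 32.4, 34.0, 51.3 and 34.5 FPKM in wild type and 99.5, 67.9, 30.4 and 48.1 in knockout (1.17 after scaling, SE 0.25, adjusted p = 0.0442). Its groups overlapped as deposited. Depdc1b (1.43, SE 0.50, adjusted p = 0.167) and Hmgb2, a chromatin protein of dividing cells (1.08, SE 0.40, adjusted p = 0.179), had the smallest p as deposited. At an unadjusted p under 0.05, 4 of the 84 were higher as deposited and 27 after scaling, where 3.11% and 9.92% of all genes were.

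Of 60 genes of DNA replication and S phase, 0 passed as deposited, where 1.92% of all genes were called. After scaling 2 rose, where 0.873% of all genes did. The medians were 0.26 as deposited and 0.80 after scaling. Mcm3, a subunit of the replicative helicase, stood at 24.2, 21.5, 27.6 and 30.3 FPKM in wild type and 54.1, 50.5, 36.9 and 38.8 in knockout, without overlap (1.37 after scaling, adjusted p = 0.0361). Gins1, a subunit of the same helicase, stood at 2.90, 8.35, 7.15 and 5.63 against 11.7, 19.8, 11.5 and 22.7, also without overlap (1.87 after scaling, adjusted p = 0.0475). At an unadjusted p under 0.05, 3 were higher as deposited and 21 after scaling, where 3.11% and 9.92% of all genes were.

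Of 35 tested genes of G1 and cell cycle exit from a list of 39, 0 passed as deposited or after scaling. Of all genes 1.92% and 1.97% were called. Their medians were -0.27 and 0.24, where those of all tested genes were -0.52 and -0.03. At an unadjusted p under 0.05, 2 were higher and 5 lower as deposited, where 3.11% and 17.5% of all genes were. After scaling 6 were higher and 2 lower, where 9.92% and 9.11% of all genes were. Cdkn1a (p21, an inhibitor of cyclin-dependent kinases) stood at 10.5, 17.9, 17.8 and 10.7 FPKM in wild type and 7.25, 11.5, 1.38 and 1.35 in knockout (-1.59, SE 0.56, adjusted p = 0.167). Rbl2 (p130, a subunit of DREAM that represses cell cycle genes) had -1.56 (adjusted p = 0.163) and the repressor E2f6 -1.28 (adjusted p = 0.150). These values are as deposited, and the lowest of the whole list after scaling was -1.13. E2f8 had 1.10 and the inhibitor Cdkn1b (p27) 0.53, and 1.59 and 1.09 after scaling (adjusted p = 0.101 and 0.117). The log2 fold changes of E2f1, Mybl2 (B-MYB), Cdkn2c, Ccnd2 and Ccnd3 were 0.19, 0.10, 0.10, -0.14 and 0.23.

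Markers of other cell types differed between the same libraries. Innate lymphoid and T lineage markers summed to 1815 to 2591 FPKM in the wild-type libraries, and 109 to 439 in knockout, and 6 of 6 fell in both scalings, Rora (-5.43), Zbtb16 (-3.89), Gata3 (-3.72) and Tcf7 (-3.34) among them. Neutrophil granule genes, 0 of 6 passing, summed to 271 to 9258 and 11392 to 43532 without overlap. Granulocyte progenitor genes, 0 of 4 passing, summed to 0.384 to 172 in wild-type libraries, against 19.7 to 1319 in knockout. In wild-type libraries 10, 11, 16 and 29 they summed to 3.20, 10.6, 172 and 0.384 FPKM. Elane and Prtn3 were listed at 0 in 1 wild-type library each and Ctsg in 2.

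Erythroid genes, 0 of 7 passing, summed to 3863 to 18759 FPKM in wild type, against 8518 to 138446 in knockout. B lineage genes (0 of 5 tested passing, 43.2 to 175 and 44.9 to 355), monocyte genes (0 of 3, 143 to 290 and 96.0 to 509) and plasma cell genes (0 of 2, 0.960 to 111 and 71.8 to 647) overlapped in sum. The monocyte genes went in both directions as deposited, with log2 fold changes from -1.94 to 2.39 and 2 of 3 above 0. Basophil and mast cell genes also overlapped in sum, at 73.5 to 229 and 64.4 to 555. Of these 1 of 3 rose after scaling and 0 as deposited, where 0.873% and 0.196% of all genes rose. Igll1 and Igj were each listed at 0 in 1 wild-type library, and Fcer1a in 3 wild-type and 1 knockout library. The part of these cell types in the levels of the mitotic genes was not tested.

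**Figure D5:**
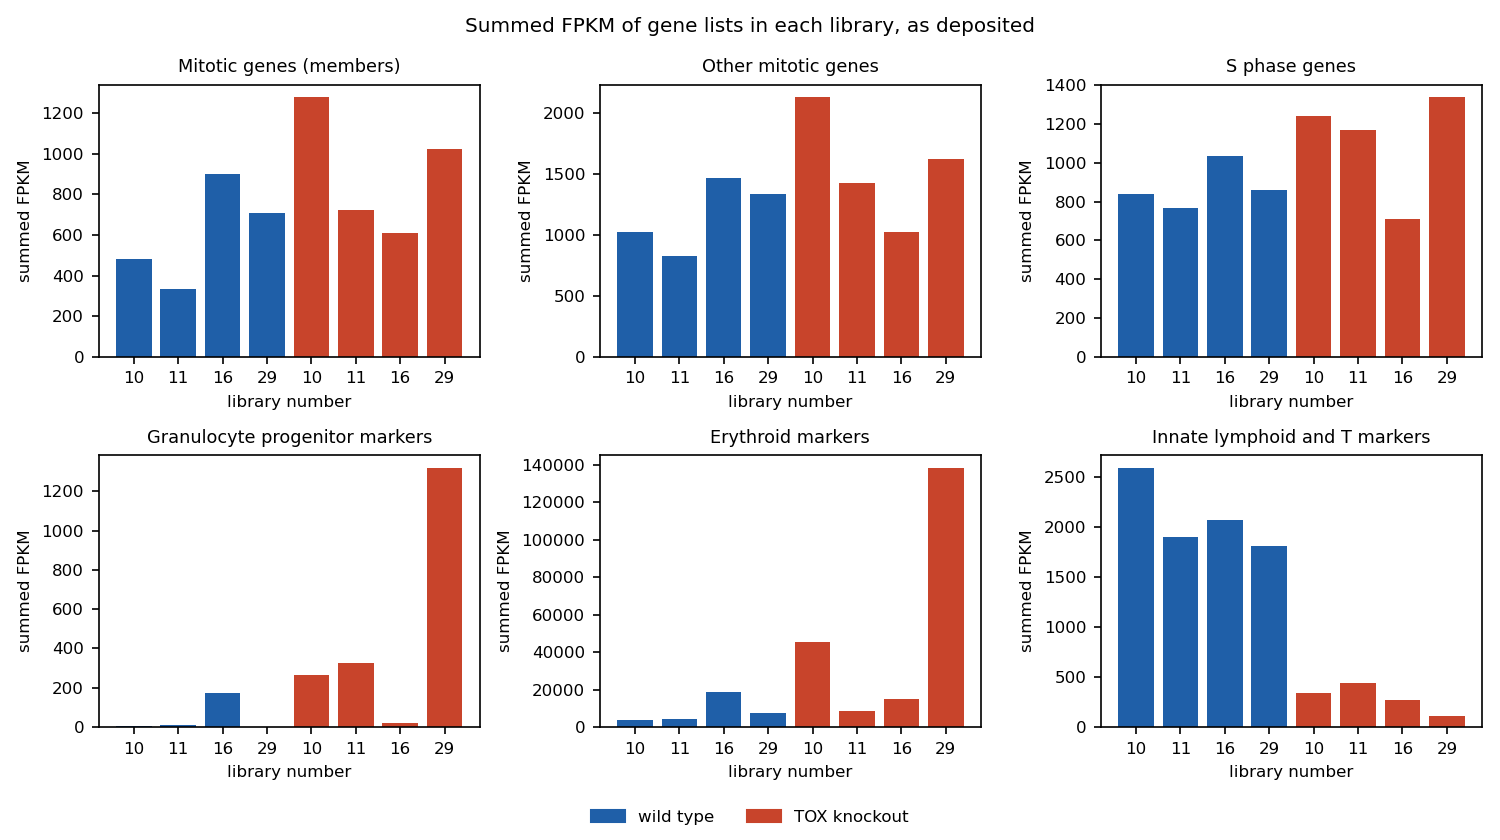
Summed FPKM, as deposited, of the 35 mitotic genes, the other mitotic genes, the S phase genes and 3 marker lists in each library, with wild type in blue and TOX knockout in red. The innate lymphoid and T markers separate the groups, at 1815 to 2591 against 109 to 439, while the sums of the mitotic genes overlap.

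Tox stood at 107, 119, 123 and 92.4 FPKM in wild type and at 2.34, 0.107, 0.928 and 0.242 in knockout. All genes together came to 296777 to 365906 FPKM in wild type, against 208351 to 632604 in knockout, and haemoglobin genes made up 3.42% to 14.8% and 6.18% to 58.6% of them. Genes at 1 FPKM or more numbered 10425 to 10481 in wild type, against 7328 to 10600 in knockout, lowest in knockout library 16. Absolute depth is unknown. Relative to wild-type library 10, the depth read from the steps of low values was 0.724 in knockout 10, 0.830 in wild-type 16 and 1.44 in knockout 16. Set against wild-type library 29, it was 0.705 in knockout 29, 0.795 in wild-type 11 and 0.901 in knockout 11.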

How the data were processed

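RNA sequencing of 4 wild-type and 4 TOX knockout libraries of sorted bone marrow cells was used. cDNA was made with a low-input SMARTer kit and sequenced on an Ion Proton, per the labels' protocols. The authors deposited FPKM values made with Cufflinks on mm10, per the submitters' processing notes. Their aligner, annotation and version of Cufflinks were not given in the sources used here. Where a few messages take up a library, the FPKM of all others is lowered.

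Columns were assigned to their group only, since their numbers are not the replicate numbers of the titles. Genes whose mean reached 1 FPKM were compared on log2(FPKM + 1) with limma 3.58.1 (R 4.3.3). Variances were moderated by empirical Bayes along a mean-variance trend, p-values were adjusted by Benjamini-Hochberg over all tested genes, and genes were called at an adjusted p under 0.05. Median-ratio scaling divided each library by its median ratio to the geometric mean over genes above 0 in every library, and the filter was then applied to scaled values. Fold changes are TOX knockout minus wild type. The fit was tested on simulated data.

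Every mitotic gene is named. Values in every library are given for 20 fixed members, and of each other list up to 4 called genes, or the 2 of smallest p if there were none, with 8 regulators whatever their p. The members, lists and tests were chosen with earlier results of these data known. Gene coordinates are those of the deposited table, counted from 1, where 35 of 35 genes lay on the same chromosome in RefSeq. Promoter sequences came from RefSeq (GRCm38.p6). The files hold no read counts, so no interval for counting error was given. No libraries held identical values. Alternatives covered the pseudocount, the filter, the scaling, library weights, the variance model, the replicate number as a block, the barcode run and each library left out. The barcode runs are the 2 series of consecutive barcode numbers in the column names, not a sequencing run that the labels record. Each run alone was added after the data were seen.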

Additional observations from a re-analysis of the deposited data

How the results depend on the processing

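Over all tested genes the count of calls was 205, and 106 with a pseudocount of 0.1, 74 without a filter, 116 with a mean of at least 5 FPKM, 728 with library weights, 5 and 95 in the barcode runs alone (both added after the data were seen) and 82 to 654 with 1 library left out. The median of the mitotic genes was 0.98 with median-ratio scaling, 0.90 after quantile normalization and 0.22 to 0.64 with 1 library left out. With scaling to the sum without haemoglobin genes it was 0.59, against -0.37 over all genes. The count of mitotic genes called was 0 and became 1 with library weights. After scaling it was 0 to 6 with 1 library left out. The cause of these differences was not tested.

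The column numbers were not taken as a pairing, and the labels do not say whether they mark pairs. The deviations of same-numbered libraries correlated at 0.0387, 0.258, 0.00621 and -0.0206, which does not settle the question. The value for number 11, 0.258, was the highest of all pairs of a wild-type and a knockout library. Same-numbered libraries carry adjacent barcodes, in the order listed 17 and 18, 42 and 43, 19 and 20, and 40 and 41. After scaling, the mitotic genes summed to 379, 257, 720 and 513 in wild type and to 1056, 538, 1376 and 1416 in knockout. Library 11 was the lowest of both groups there, but as deposited the lowest knockout library was 16. With the column number as a replicate block, 344 of 10693 genes were called, 0 of them mitotic. After scaling, 3 of 35 mitotic genes (Birc5, Mki67 and Ube2c) rose, where 47 of all 10541 tested genes did. In that scaled fit 27 mitotic genes were higher at an unadjusted p under 0.05, where 1129 of all 10541 genes were. Without the block 22 mitotic genes were, where 1046 of all 10541 genes were. The absence of mitotic calls after scaling thus did not hold with the block.

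The sign of single genes, none of them called, changed under some alternatives. Cdca8 was at 0.48 with median-ratio scaling, 0.32 after quantile normalization, 0.090 with scaling to the sum without haemoglobin, 0.26 with library weights, 0.21 without knockout libraries 16 and 29, and 0.63 in the second run, and at -0.10 in the first run after scaling. Mad2l1 was at 0.54, 0.37, 0.14, 0.79, 0.66 and 0.24 under the first 6 of these. Kif20a was at 0.16 with quantile normalization, 0.16 with weights, 0.40 without knockout 16 and 29 and 0.75 in the second run, and after scaling at 0.25, 0.42 and 0.94 under the last 3. In the first run alone Aurka was at -0.0034, Plk1 at -0.14, Bub1b at -0.083, Cdc20 at -0.39, Cenpf at -0.11, Ndc80 at -0.48 and Kif4 at -0.26, and in the second Ccnb2 at -0.025. With 1 library left out, the values ran as follows: Ccnb2 -0.054 to 0.51, Cdca8 -0.30 to 0.30, Bub1b -0.14 to 0.58, Mad2l1 -0.50 to 0.31, Cdc20 -0.26 to 0.30, Cenpf -0.093 to 0.35, Ndc80 -0.17 to 0.46, Kif20a -0.80 to 0.19, Kif20a after scaling -0.49 to 0.41, Prc1 -0.015 to 0.40.

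Standard errors of 0.37 to 0.62 on the log2 scale, with 4 libraries a group, limit what the test could call, and a p that misses the threshold does not show that the genotypes are alike. Depth is unknown in absolute terms, the sorted population is not given in the sources used here, and 6 promoters were not used.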
